A study of Homo sapiens with 12 samples.

Results

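The 10 genes described here encode parts of the cytotoxic granule: 5 granzymes (GZMA, GZMB, GZMH, GZMK and GZMM), perforin (PRF1), granulysin (GNLY), the membrane protein NKG7, the proteoglycan serglycin (SRGN) and the protease inhibitor cystatin F (CST7). They were taken from the deposited expression table by gene symbol, under a rule that holds no measured value, and all 10 were among its 25146 genes. The symbols were drawn up with earlier results of these data known. The table holds RNA sequencing of Molt-4 and Jurkat, 2 human cell lines of T-cell acute lymphoblastic leukaemia, here T-ALL. There were 4 groups of 3 libraries: Molt-4 with chidamide, untreated Molt-4, Jurkat with chidamide and untreated Jurkat. Chidamide (tucidinostat) is a benzamide inhibitor of histone deacetylases, given at 2 µM for 48 h according to the protocol. Replicates 1, 2 and 3 of the treated groups carry labels of 48, 49 and 50 h, so their time and their replicate number cannot be told apart. All cells grew in the same medium with fetal bovine serum. The letters M and J in the library names were read as Molt-4 and Jurkat. The label field that names peripheral blood goes with libraries whose source is given as leukaemia cell lines. Each line is a single long-cultured tumour, and whether the 3 libraries of a group were separate cultures is not given, so p-values measure the spread between these libraries, which may be technical.

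Natural killer (NK) cells and cytotoxic T cells kill by releasing granules at the contact with a target cell. Perforin opens the target's membrane, and granzymes, which are serine proteases, enter and cleave proteins there. Serglycin holds the cargo inside the granule, NKG7 is needed for efficient release, granulysin lyses microbes, and cystatin F restrains the cathepsins that trim granzymes to their active form. Immature thymocytes, from which T-ALL arises, are not killer cells, and transcription factors of the T-box and RUNX families drive these genes when mature killer cells form.

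Values were FPKM (fragments per kilobase of transcript, scaled to sequencing depth), made by the authors before deposit and scaled per gene length, so levels of different genes can be set side by side. No read counts stand behind them here, which leaves the depth unknown. A library's FPKM added up to 698435 to 869059, and 11643 to 13228 genes reached an FPKM of 1. Untreated Jurkat replicate 3 stood apart: its log2 values differed from those of its group with an SD of 0.332 and 0.337, where pairs of libraries in the same group otherwise had SDs of 0.233 to 0.269. The 7SL RNA genes held 2.25% to 10.1% of the total, the most in untreated Molt-4 replicate 3. Of 17 T-cell markers, 17 were at an FPKM of at least 1 in every library of chidamide-treated Molt-4, 16 in untreated Molt-4, 17 in chidamide-treated Jurkat and 17 in untreated Jurkat. Their summed level was 1077 to 1092 FPKM in treated and 1477 to 1547 FPKM in untreated Molt-4, and 1752 to 1820 FPKM in treated and 2939 to 3108 FPKM in untreated Jurkat. The treated sums were thus the lower ones in both lines, and their part in the results was not tested. In such bulk libraries, more cells with a transcript and more of it per cell cannot be told apart.

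With chidamide, 6 of the 10 granule genes were higher in Molt-4 and none was lower (all 7 tested by limma had a log2 change above 0), and in Jurkat 5 were higher and 2 lower, CST7 and GZMH. GZMH entered the fit only through its level in untreated Jurkat, so its call against that group follows from the filter, and its values against that group are given with no p. GZMA, GZMM, PRF1, NKG7 and SRGN rose in both lines. GZMA and GZMM had the largest log2 changes of the 7 tested in each line. CST7 fell in Jurkat and rose in Molt-4. The calls come from limma on log2(FPKM + 1) for the 13840 genes that reached 1 FPKM in 3 or more libraries, at a Benjamini-Hochberg adjusted p under 0.05. Of the 10 genes, 7 passed this filter, and GZMB, GZMK and GNLY did not. GZMM passed it through the treated groups and remains in these counts. Among all genes tested, 35.4% were called higher and 24.6% lower in Molt-4, and 30.9% higher and 25.4% lower in Jurkat. These shares are large, so a single call in either direction is common in these data. The log2(FPKM + 1) scale understates the changes of low genes. The median log2 change was 1.03 in Molt-4 and 1.26 in Jurkat over the 7 genes tested, beside 0.08 in Molt-4 and 0.04 in Jurkat over all genes tested.

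**Figure D1:**
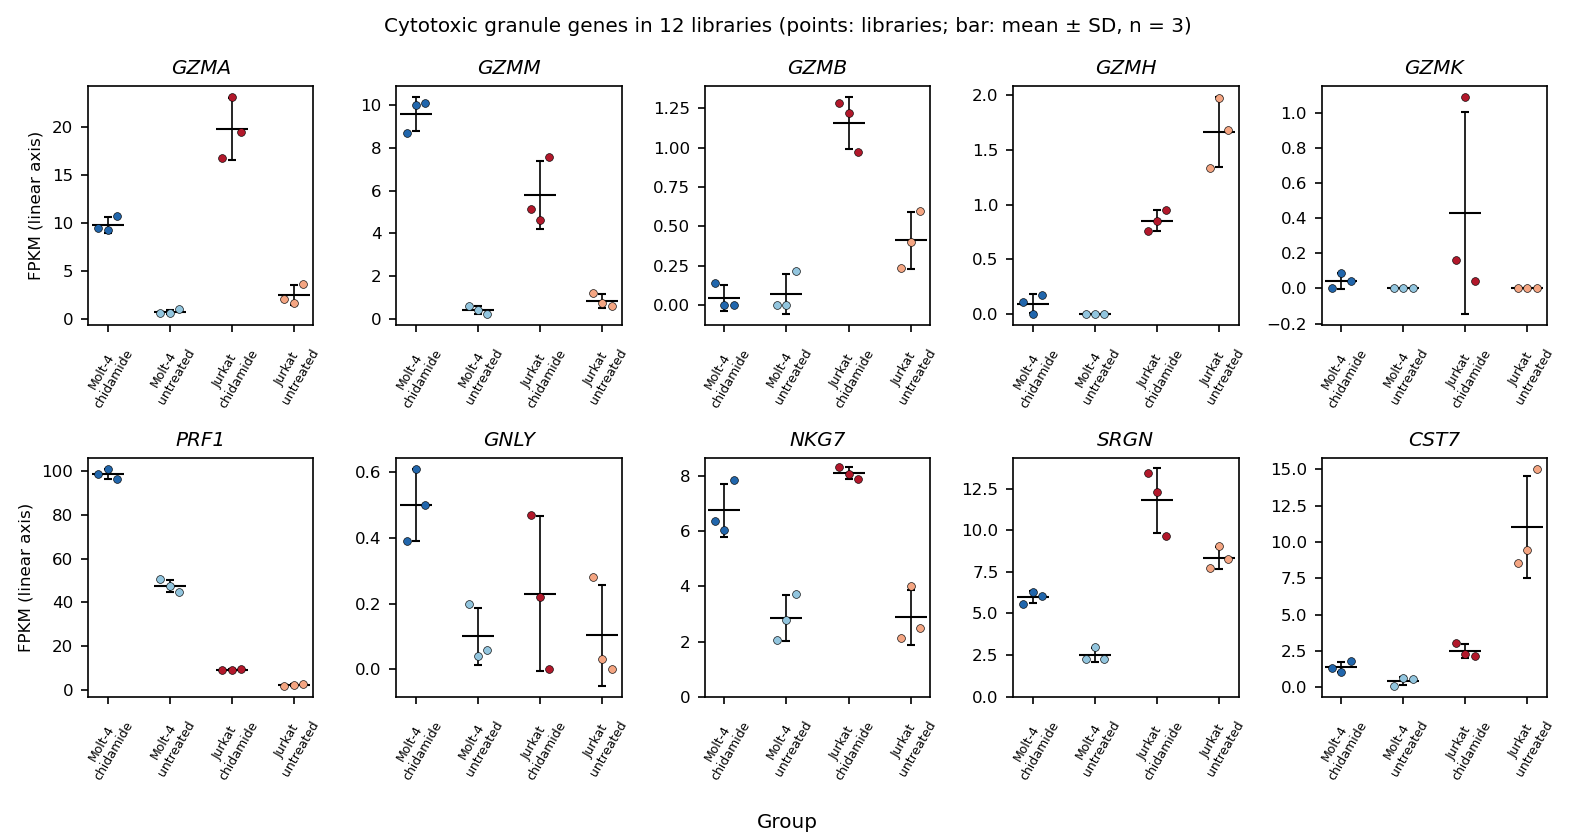
FPKM of the 10 granule genes on linear axes, with a point for each library and bars for the mean ± SD of the 3 libraries of each group. The chidamide points of GZMA, GZMM, PRF1, NKG7 and SRGN lie above the untreated points of the same line, while CST7 and GZMH lie below them in Jurkat.

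Granzyme A, a tryptase, was the granzyme with the highest mean level in both Jurkat groups. In Molt-4, GZMA had 9.53, 9.25 and 10.8 FPKM with chidamide, against 0.66, 0.69 and 1.05 FPKM untreated. The Jurkat libraries had 16.76, 23.13 and 19.52 FPKM with chidamide, against 2.11, 1.72 and 3.68 FPKM untreated. The groups did not overlap in either line, and treated Molt-4 lay above untreated Jurkat. Mean levels were 9.86 ± 0.826 FPKM in treated and 0.800 ± 0.217 FPKM in untreated Molt-4, and 19.8 ± 3.19 FPKM in treated and 2.50 ± 1.04 FPKM in untreated Jurkat (SD, n = 3 each). These are ratios of means of 12.3 in Molt-4 and 7.91 in Jurkat. The log2 change was 2.60 ± 0.184 (SE) in both lines, with a limma adjusted p of 1.78e-07 in Molt-4 and 2.45e-07 in Jurkat. The difference of the responses, Molt-4 minus Jurkat, was -0.0015 ± 0.260 (adjusted p = 0.998), so no difference between the lines was detected for GZMA. The promoter windows of GZMA and of NKG7, both higher with chidamide in each line, are printed here as RefSeq sequence of GRCh38.p14, from 250 bases before to 50 bases after the gene start. GZMA lies on the plus strand at chr5:55102396-55102695, and NKG7 on the minus strand at chr19:51372605-51372904. Capitals mark 2 motifs found by letter search on both strands. These are the RUNX core TGTGGT, which appears as ACCACA where it lies on the other strand, and a T-box motif TCACAC, which likewise appears as GTGTGA where it lies on the other strand.
GZMA: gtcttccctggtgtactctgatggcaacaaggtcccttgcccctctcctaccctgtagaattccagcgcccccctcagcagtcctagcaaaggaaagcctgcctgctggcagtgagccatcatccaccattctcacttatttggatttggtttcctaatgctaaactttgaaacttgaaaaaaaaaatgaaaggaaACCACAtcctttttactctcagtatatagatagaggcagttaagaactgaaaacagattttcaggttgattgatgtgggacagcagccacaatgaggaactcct
NKG7: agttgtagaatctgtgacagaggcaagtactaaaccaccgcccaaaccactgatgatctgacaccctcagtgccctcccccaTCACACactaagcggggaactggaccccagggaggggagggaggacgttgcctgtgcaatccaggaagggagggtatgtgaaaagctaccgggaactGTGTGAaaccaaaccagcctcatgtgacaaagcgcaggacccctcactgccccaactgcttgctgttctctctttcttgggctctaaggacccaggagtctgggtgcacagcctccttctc
The GZMA window holds the RUNX core 54 bases before the start. The NKG7 window holds the T-box motif 168 and 71 bases before the start, and no RUNX core.

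Granzyme M, a protease that cleaves after methionine or leucine and is known mostly from NK cells, had the largest change of the 10 genes in Molt-4. GZMM had 8.67, 10.01 and 10.07 FPKM with chidamide in Molt-4, against 0.61, 0.43 and 0.25 FPKM untreated. The values in Jurkat were 5.14, 4.62 and 7.58 FPKM with chidamide, against 1.23, 0.76 and 0.61 FPKM untreated. All 6 treated libraries were above all 6 untreated libraries, and treated Molt-4 was above treated Jurkat. The log2 change was 2.89 ± 0.170 in Molt-4 (a ratio of means of 22.3) and 1.85 ± 0.170 in Jurkat (a ratio of means of 6.67). Of the untreated libraries only Jurkat replicate 1 reached 1 FPKM. GZMM thus passed the filter through the treated groups, and no p against untreated libraries is given from that fit. Without a filter on low values, it was called higher in Molt-4 (limma adjusted p = 3.93e-07) and in Jurkat (1.31e-05). In that fit 30.5% of 20104 genes were called higher in Molt-4 and 25.1% in Jurkat. GZMM rose more in Molt-4, by a log2 difference of 1.04 ± 0.241 (limma adjusted p = 0.00601). For the difference of responses, 19.8% of all genes tested were called higher in Molt-4 and 12.1% lower.

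Granzyme B, the protease that activates caspases in target cells, stayed near the lower end of the scale. In Molt-4, GZMB was listed at 0.14, 0 and 0 FPKM with chidamide, against 0, 0 and 0.22 FPKM untreated. In Jurkat it had 1.28, 1.22 and 0.97 FPKM with chidamide, against 0.24, 0.4 and 0.6 FPKM untreated. The Jurkat groups did not overlap, and the Molt-4 groups did. In a fit without the filter on low values, where 25.1% of 20104 genes were called higher in Jurkat and 30.5% in Molt-4, GZMB was called higher in Jurkat, with a log2 change of 0.61 ± 0.110 (adjusted p = 0.000994). In Molt-4 its adjusted p was 0.863 in that fit. The difference of responses was then -0.65 ± 0.155 (adjusted p = 0.0118), in a fit with 9.01% of genes called lower for that difference.

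Granzyme H is a close relative of granzyme B and was highest in untreated Jurkat. In Molt-4, GZMH was listed at 0.11, 0 and 0.17 FPKM with chidamide, and at 0 in the 3 untreated libraries. The Jurkat libraries had 0.76, 0.85 and 0.95 FPKM with chidamide, against 1.34, 1.98 and 1.68 FPKM untreated. The treated Jurkat libraries were all below the untreated ones, and every Molt-4 library was below every Jurkat library. The ratio of means was 0.512 in Jurkat, with a log2 change of -0.52 ± 0.105, and in Molt-4 the log2 change was 0.13 ± 0.105 (limma adjusted p = 0.324). GZMH reached 1 FPKM in the 3 untreated Jurkat libraries and in no other, and it no longer passed the filter when any of these was left out.

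GZMB and GZMH are neighbours on the minus strand of chromosome 14, and their windows, chr14:24634141-24634440 for GZMB and chr14:24609636-24609935 for GZMH in GRCh38.p14 (RefSeq), are shown because in Jurkat the treated libraries lay above the untreated ones for GZMB and below them for GZMH. Capitals mark the same motifs as above.
GZMB: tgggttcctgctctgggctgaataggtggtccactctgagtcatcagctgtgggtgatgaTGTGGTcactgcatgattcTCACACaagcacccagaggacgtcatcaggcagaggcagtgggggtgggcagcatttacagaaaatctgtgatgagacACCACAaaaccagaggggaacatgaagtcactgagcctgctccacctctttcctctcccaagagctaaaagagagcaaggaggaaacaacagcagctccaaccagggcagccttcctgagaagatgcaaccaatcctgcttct
GZMH: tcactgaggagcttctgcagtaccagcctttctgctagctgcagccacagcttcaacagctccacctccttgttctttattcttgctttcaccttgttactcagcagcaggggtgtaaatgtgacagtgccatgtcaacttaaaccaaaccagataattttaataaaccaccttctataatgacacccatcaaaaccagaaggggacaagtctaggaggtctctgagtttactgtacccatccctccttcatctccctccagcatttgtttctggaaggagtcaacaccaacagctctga
The GZMB window holds the RUNX core 190 and 93 bases before the start and the T-box motif 171 bases before it. Neither is found in the GZMH window. The annotated transcripts of both genes align over 795 bases with 81.4% identity and share an exact run of 106 bases, while the other granzyme pairs share runs of 10 to 15 bases. Reads from shared stretches may match both GZMB and GZMH, and how the authors' counting treated such reads is not given. An antisense gene, AL136018.1, overlaps both genes. Whether counting used strand is not given in the sources used here, so their levels are uncertain at this low range.

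The chromosome 14 group goes on with CTSG (cathepsin G, a granule protease of neutrophils and monocytes) and CMA1 (mast cell chymase), in the order CMA1, CTSG, GZMH and GZMB. CTSG was the most abundant of these in every library. In Molt-4, it averaged 31.7 ± 0.989 FPKM with chidamide and 12.7 ± 1.26 FPKM untreated (SD, n = 3 each). The values in Jurkat were 61.75, 63.63 and 64.23 FPKM with chidamide, against 206.9, 220.38 and 424.96 FPKM untreated. CTSG and GZMH were thus both lower with chidamide in Jurkat, where GZMB was higher in the fit without a filter and CMA1 averaged 0.587 FPKM in both Jurkat groups. The log2 change of CTSG was 1.26 ± 0.203 in Molt-4 (adjusted p = 0.000191) and -2.07 ± 0.203 in Jurkat (limma adjusted p = 3.53e-06).

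**Figure D2:**
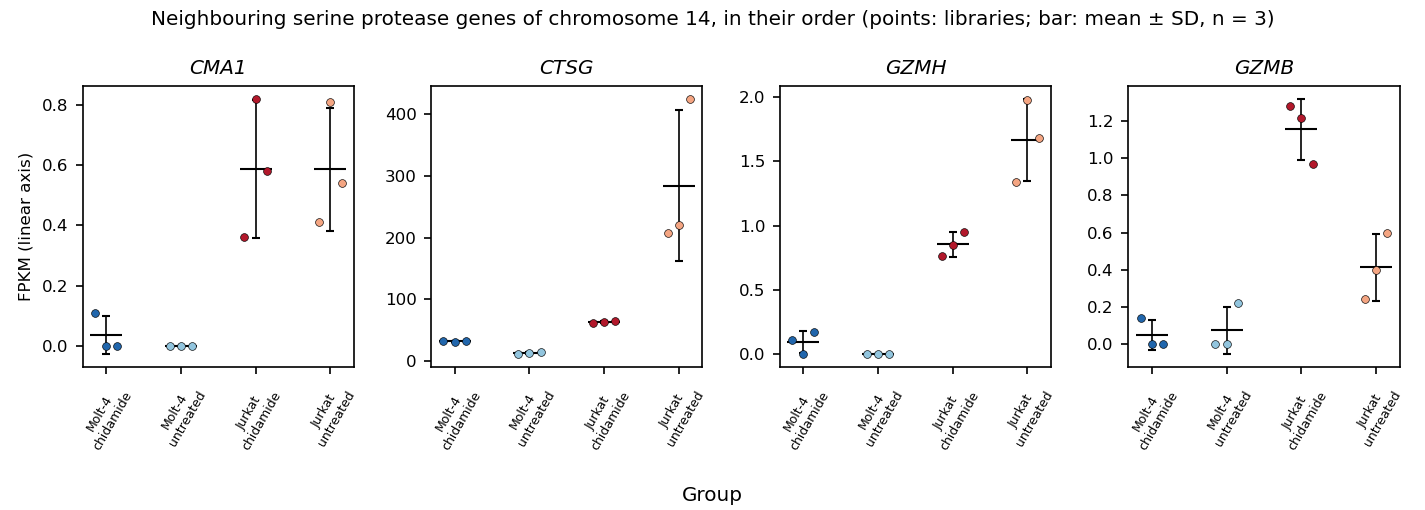
FPKM of 4 neighbouring protease genes of chromosome 14 in their order along the chromosome, on linear axes of different range, with a point for each library and bars for the mean ± SD of 3 libraries per group. In Jurkat, the chidamide points of CTSG and GZMH lie below the untreated ones and those of GZMB above.

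Granzyme K, a tryptase whose gene neighbours GZMA on chromosome 5, was close to absent. In Molt-4, GZMK was listed at 0, 0.09 and 0.04 FPKM with chidamide, and in Jurkat at 0.16, 1.09 and 0.04 FPKM with chidamide. It was listed at 0 in all 6 untreated libraries. Its value in treated Jurkat rested on replicate 2. In the fit without a filter it was not called (adjusted p = 0.86 in Molt-4 and 0.099 in Jurkat). GZMA, its neighbour, was between 9.25 and 23.13 FPKM in the same treated libraries. An annotated transcript, AC034238.1, overlaps GZMK on the opposite strand.

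Perforin was the most abundant granule gene of Molt-4 in every library. PRF1 had 98.54, 101.06 and 96.52 FPKM with chidamide in Molt-4, against 50.58, 47.35 and 44.92 FPKM untreated. In Jurkat it had 9.03, 9.24 and 9.45 FPKM with chidamide, against 2.02, 2.05 and 2.72 FPKM untreated. Untreated Molt-4 already lay above treated Jurkat in every library, and the 4 groups did not overlap. The log2 change was 1.04 ± 0.0836 in Molt-4 (adjusted p = 5.53e-07, a ratio of means of 2.07) and 1.66 ± 0.0836 in Jurkat (adjusted p = 1.39e-08, a ratio of means of 4.08). PRF1 rose less in Molt-4 than in Jurkat, with a difference of -0.62 ± 0.118 (limma adjusted p = 0.00186). This call was lost under quantile normalization, where the difference was -0.23 (adjusted p = 0.0714, range over alternatives 7.81e-05 to 0.0714). The PRF1 window, chr10:70602692-70602991 on the minus strand in GRCh38.p14 (RefSeq), is shown for the most abundant of the genes.
PRF1: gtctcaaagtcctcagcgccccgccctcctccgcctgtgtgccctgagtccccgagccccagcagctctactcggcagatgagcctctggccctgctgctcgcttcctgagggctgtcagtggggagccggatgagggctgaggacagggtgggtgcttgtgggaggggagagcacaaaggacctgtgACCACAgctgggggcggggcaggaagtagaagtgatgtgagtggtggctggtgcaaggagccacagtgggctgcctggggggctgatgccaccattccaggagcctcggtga
It holds the RUNX core 62 bases before the start, in capitals, and no T-box motif.

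Granulysin stayed low in every library. In Molt-4, GNLY had 0.39, 0.61 and 0.5 FPKM with chidamide, against 0.2, 0.04 and 0.06 FPKM untreated. The Jurkat libraries had 0.47, 0.22 and 0 FPKM with chidamide, against 0.28, 0.03 and 0 FPKM untreated. The Molt-4 groups did not overlap, and the Jurkat groups did. Without a filter on low values, GNLY was called higher in Molt-4, with a log2 change of 0.45 ± 0.137 (adjusted p = 0.0197), and not in Jurkat (adjusted p = 0.445). A pseudogene, AC012454.1, lies over GNLY on the opposite strand.

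NKG7, the granule membrane protein, had similar levels in both lines. It had 6.37, 6.05 and 7.86 FPKM with chidamide in Molt-4, against 2.05, 2.78 and 3.73 FPKM untreated. The values in Jurkat were 8.34, 8.08 and 7.9 FPKM with chidamide, against 2.12, 4.02 and 2.51 FPKM untreated. Treated and untreated libraries did not overlap in either line. The log2 change was 1.03 ± 0.186 in Molt-4 (adjusted p = 0.000468) and 1.26 ± 0.186 in Jurkat (adjusted p = 0.000106). Neither the difference of responses, -0.23 ± 0.262 (adjusted p = 0.541), nor the untreated lines, with a log2 difference of -0.0039 ± 0.186 (adjusted p = 0.99), passed the test.

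Serglycin, the proteoglycan that packs the cargo, was present in every group. SRGN had 5.6, 6.32 and 6.05 FPKM with chidamide in Molt-4, against 2.26, 3 and 2.28 FPKM untreated. In Jurkat it had 13.45, 12.32 and 9.64 FPKM with chidamide, against 7.75, 9.06 and 8.26 FPKM untreated. The groups did not overlap within a line, and every Jurkat library was above every Molt-4 library. The log2 change was 1.00 ± 0.125 in Molt-4 (adjusted p = 2.42e-05) and 0.44 ± 0.125 in Jurkat (adjusted p = 0.00927). The Jurkat call was lost under quantile normalization (adjusted p = 0.0537, range over alternatives 0.00195 to 0.0537). The larger rise in Molt-4, by 0.55 ± 0.176 (limma adjusted p = 0.0312), was lost under that normalization (0.304), with totals equalized without 7SL RNA (0.0675), and without replicate 3 of treated Jurkat (0.067), replicate 2 of untreated Jurkat (0.0693), replicates 2 (0.0713) or 3 (0.0626) of treated Molt-4, and replicates 1 (0.07) or 3 (0.0672) of untreated Molt-4, in a range over alternatives of 0.0169 to 0.304. The SRGN gene contains an annotated small RNA gene, RF00017, on its own strand.

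Cystatin F was the only member called in opposite directions in Molt-4 and Jurkat, and its Molt-4 call depended on the normalization. CST7 had 1.3, 1.08 and 1.8 FPKM with chidamide in Molt-4, against 0.1, 0.65 and 0.58 FPKM untreated. The Jurkat libraries had 3.08, 2.3 and 2.17 FPKM with chidamide, against 8.56, 9.46 and 15.02 FPKM untreated. The groups did not overlap within a line, and every treated Molt-4 library was below every treated Jurkat library. CST7 fell in Jurkat, with a log2 change of -1.74 ± 0.212 (adjusted p = 2.2e-05, a ratio of means of 0.229). It rose in Molt-4 by 0.74 ± 0.212 (adjusted p = 0.00938, a ratio of means of 3.14), but under quantile normalization that change was 0.03 (adjusted p = 0.908, range over alternatives 0.00292 to 0.908). The difference of responses was 2.48 ± 0.299 (limma adjusted p = 6.49e-05), with a largest adjusted p of 0.000891 over the alternatives.

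**Figure D3:**
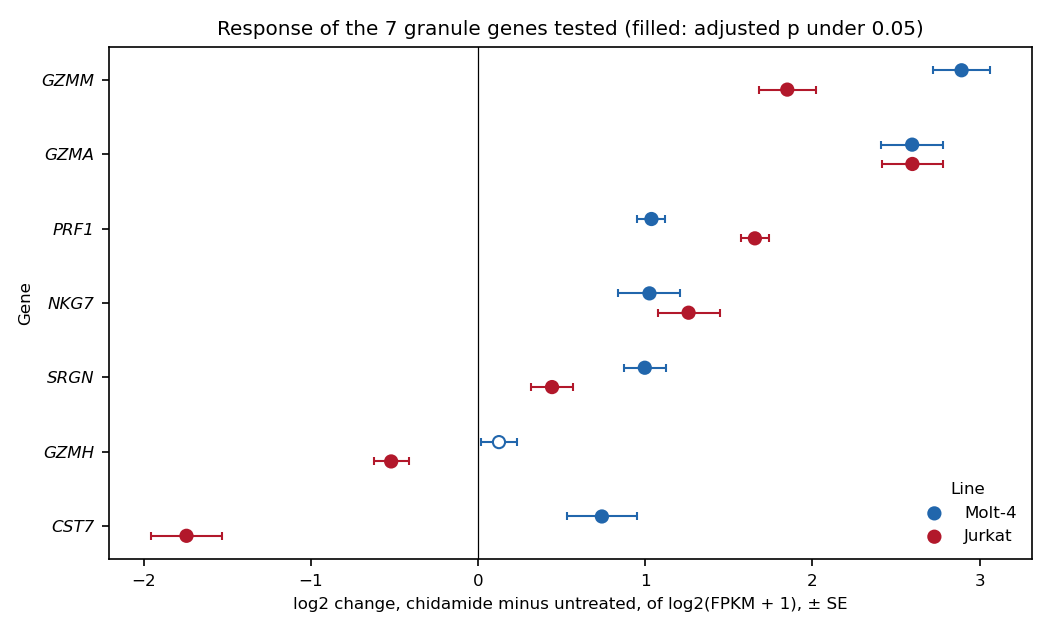
Log2 change of log2(FPKM + 1), chidamide minus untreated, ± SE for the 7 granule genes tested, with Molt-4 above Jurkat for each gene and filled points for an adjusted p under 0.05. GZMA lies at 2.60 in both lines, GZMM is further right in Molt-4, PRF1 is further right in Jurkat, and CST7 lies at 0.74 in Molt-4 and at -1.74 in Jurkat.

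Between the untreated lines, 1 of the 7 genes tested was higher in Molt-4 than in Jurkat and 4 were lower, GZMH among them, where 27.9% of all genes tested were called higher and 37.5% lower. The count of members called is thus near the background. PRF1 was the higher one, at 47.6 ± 2.84 FPKM in Molt-4 and 2.26 ± 0.396 FPKM in Jurkat (SD, n = 3 each), a log2 difference of 3.90 ± 0.0836 (adjusted p = 1.66e-12) and a ratio of means of 21.0. CST7 averaged 0.443 ± 0.299 FPKM in Molt-4 and 11.01 ± 3.50 FPKM in Jurkat, a log2 difference of -3.04 (limma adjusted p = 8.69e-08). The log2 difference was -1.42 for SRGN (adjusted p = 7.61e-07) and -0.93 for GZMA (adjusted p = 0.000766). GZMH was listed at 0 in untreated Molt-4 and averaged 1.67 FPKM in untreated Jurkat, the group through which it entered the fit. GZMM was not called at -0.38 (adjusted p = 0.0688). It was called with a pseudocount of 0.1 (0.0203), under quantile normalization (0.0122), without replicate 3 of treated Jurkat (0.0338) and without replicate 3 of untreated Jurkat (0.0411), in a range over alternatives of 0.0122 to 0.254. Without a filter on low values, GZMB was called lower in Molt-4, at -0.40 ± 0.110 (adjusted p = 0.012), where 26.2% of genes were. This comparison shares its libraries with both treatment comparisons.

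Added up, the 10 genes reached 130.65, 134.47 and 133.81 FPKM in Molt-4 with chidamide, against 56.46, 54.94 and 53.09 FPKM untreated. In Jurkat the sums were 58.47, 63.07 and 58.22 FPKM with chidamide, against 25.65, 29.48 and 35.08 FPKM untreated. The treated sums were above the untreated ones in both lines, and treated Jurkat was above untreated Molt-4. The makeup of the sums differed. PRF1 held 72.1% to 75.4% of the sum in treated and 84.6% to 89.6% in untreated Molt-4. In Jurkat, PRF1 held 14.7% to 16.2% with chidamide and 6.95% to 7.88% untreated, while CST7 held 3.65% to 5.27% with chidamide and 32.1% to 42.8% untreated.

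**Figure D4:**
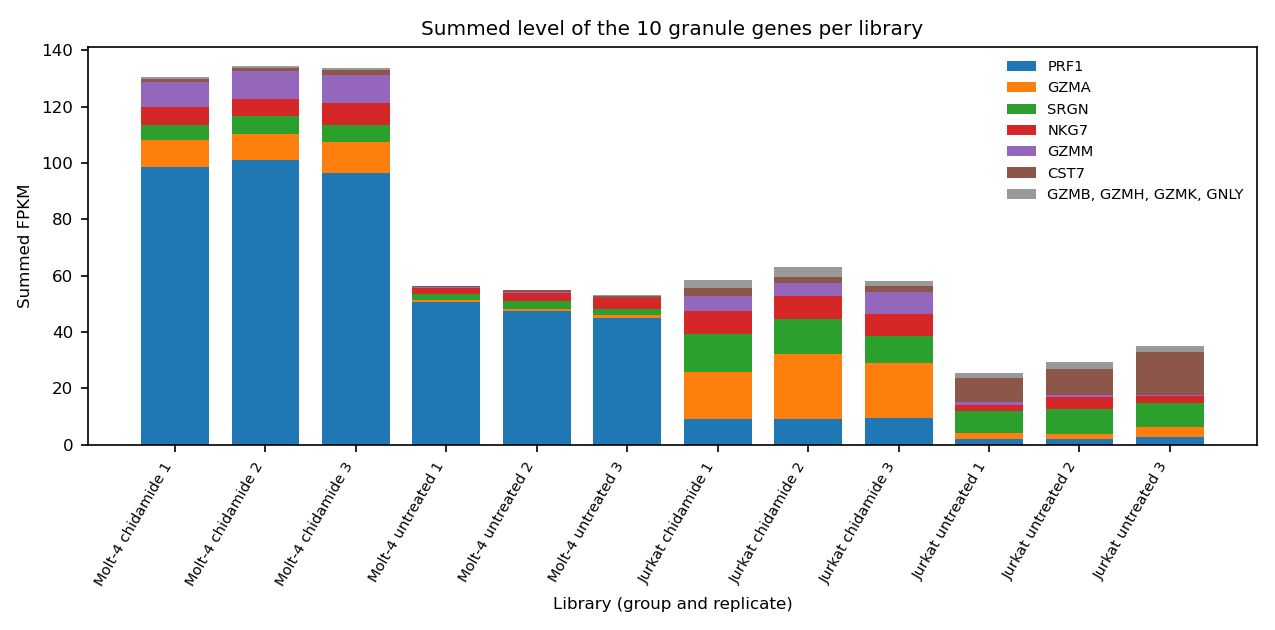
Summed FPKM of the 10 granule genes in each of the 12 libraries, stacked by gene. PRF1 makes up most of every Molt-4 bar, and in Jurkat the CST7 share is 32.1% to 42.8% in untreated libraries and at most 5.27% with chidamide.

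Genes that move, process or control granule proteins were counted from 5 lists, drawn up with earlier results of these data known. Each level is given as the mean ± SD of the 3 libraries of a group. The NK and cytotoxic T-cell surface and effector list held 23 tested genes of 54. In Molt-4, 20 of these were called higher and 1 lower, with a median log2 change of 1.09, and in Jurkat 13 were higher and 3 lower, with a median of 0.46. SLAMF7, S1PR5 and SH2D1B reached an FPKM of 1 only in treated Molt-4 and entered the fit through it. Without them, 17 of 20 were higher and 1 lower in Molt-4, and 11 higher and 3 lower in Jurkat. NCAM1 and IL21R reached an FPKM of 1 only in the treated libraries of both lines, and they remain in these counts. Any call of theirs against untreated libraries follows from the filter, so no p is given for them. Among all genes tested, 35.4% were higher and 24.6% lower in Molt-4, and 30.9% higher and 25.4% lower in Jurkat. In each line 7 of the calls of this list were lost under at least 1 alternative. The lower calls were SH2D1A in Molt-4, and ADGRG1, SH2D1A and CD244 in Jurkat, of which only that of ADGRG1 held under all alternatives. ADGRG1 averaged 4.49 ± 1.08 FPKM in treated and 9.61 ± 2.65 FPKM in untreated Jurkat (log2 change -0.94, limma adjusted p = 0.00103). IFNG, FASLG, CCL5 and KLRK1 were among the genes of this list that did not pass the filter. SLAMF7, an NK receptor, averaged 5.92 ± 0.982 FPKM in treated and 0.0467 ± 0.0208 FPKM in untreated Molt-4. NCAM1 (CD56), an adhesion molecule that marks NK cells, averaged 25.3 ± 2.95 FPKM in treated and 0.107 ± 0.0929 FPKM in untreated Jurkat (log2 change 4.57). In Molt-4 it averaged 4.91 ± 0.589 FPKM treated and was listed at 0 untreated. IL2RB, the receptor chain shared by interleukins 2 and 15, averaged 6.07 ± 0.272 FPKM in treated and 0.323 ± 0.15 FPKM in untreated Jurkat (log2 change 2.42). Of the untreated libraries only Molt-4 replicate 2 reached an FPKM of 1 for IL2RB. It thus passed the filter through treated libraries, and no p is given for it. CX3CR1, a chemokine receptor of cytotoxic cells, averaged 8.58 ± 0.362 FPKM in treated and 1.54 ± 0.287 FPKM in untreated Jurkat. NCR3 (NKp30), an activating NK receptor, averaged 7.55 ± 1.22 FPKM in treated and 0.983 ± 0.136 FPKM in untreated Molt-4.

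Of the transcription factor list, 31 were tested. In Molt-4, 24 were called higher and 3 lower, with a median log2 change of 1.13, and 23 were higher and 6 lower in Jurkat, with a median of 1.22, beside all-gene shares of 35.4% higher and 24.6% lower in Molt-4 and 30.9% higher and 25.4% lower in Jurkat. PRDM1 reached an FPKM of 1 only in treated Jurkat, and without it 23 were higher and 3 lower in Molt-4, and 22 higher and 6 lower in Jurkat. TBX21 and FOXO1 reached an FPKM of 1 only in the treated libraries of both lines, and they remain in these counts. Their calls against untreated libraries follow from the filter, so no p is given for them. An alternative ended 3 of the calls in Molt-4 and 1 in Jurkat. The factors called lower were NFKB1, STAT5B and TCF7 in Molt-4, and ZEB1, NFATC1, STAT5B, TCF7, BATF and IRF8 in Jurkat. In Molt-4 the calls of STAT5B and TCF7 were among those ended. The higher calls in Jurkat also held LEF1, ID3, BACH2 and BCL6. The factors described below all rose. ID2, an inhibitor of E proteins that NK cells need, averaged 114 ± 8.16 FPKM in treated and 10.1 ± 2.22 FPKM in untreated Molt-4, and 37.4 ± 3.89 FPKM in treated and 1.43 ± 0.431 FPKM in untreated Jurkat. TOX2 averaged 49.1 ± 1.33 FPKM in treated and 0.917 ± 0.422 FPKM in untreated Molt-4, and STAT4, which carries interleukin-12 signals, 13.6 ± 1.64 FPKM in treated and 1.03 ± 0.445 FPKM in untreated Jurkat. The T-box factors TBX21 and EOMES, which drive GZMB and PRF1 in killer cells, are given here after their values were seen. TBX21 averaged 2.43 ± 0.127 FPKM in treated Molt-4 and was listed at 0 in untreated Molt-4. It averaged 2.71 ± 0.311 FPKM in treated and 0.263 ± 0.257 FPKM in untreated Jurkat (log2 change 1.57). EOMES averaged 3.95 ± 0.129 FPKM in treated and 1.04 ± 0.118 FPKM in untreated Molt-4 (log2 change 1.28, adjusted p = 6.45e-06), and 15.98 ± 1.4 FPKM in treated and 1.47 ± 0.55 FPKM in untreated Jurkat (log2 change 2.80, adjusted p = 1.08e-08). RUNX3, a RUNX factor of cytotoxic T cells, averaged 17.1 ± 0.81 FPKM in treated and 0.853 ± 0.261 FPKM in untreated Molt-4 (log2 change 3.29, adjusted p = 4.03e-10), and 40.6 ± 2.52 FPKM in treated and 16.7 ± 1.94 FPKM in untreated Jurkat (log2 change 1.24, adjusted p = 1.91e-06), the Jurkat values being given after they were seen. Levels of these factors do not show that they acted on the granule genes.

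Promoter windows were at hand for 6 of the 10 members. The RUNX core TGTGGT was in 4 of these (GZMA, GZMB, PRF1 and GNLY) and in 13.1% of 35116 windows of the same length over all genes. The T-box motif TCACAC was in 3 (GZMB, NKG7 and GNLY) and in 12% of all windows. GZMH, lower with chidamide in Jurkat, had neither motif in its window. A GC box (GGGCGG) was in PRF1 and NKG7 and in 44.95% of all windows, an AP-1 motif (TGANTCA) was in GZMB and in 7.71%, and TATAAA was in none of the 6 and in 11.5%. The ETS core AGGAAG was in GZMB, PRF1 and NKG7 and in 33.65%. With 6 windows these counts are a description, and a letter match is no evidence of binding.

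Among the genes that process granzymes or hold them in check, 15 of 19 were tested. In Molt-4, 12 were called higher and 1 lower, with a median log2 change of 0.92, and in Jurkat 7 were higher and 1 lower, with a median of 0.10. The shares over all genes were 35.4% higher and 24.6% lower in Molt-4, and 30.9% higher and 25.4% lower in Jurkat. Of the calls in Molt-4, 2 (SERPINB1 and CTSW) were lost under an alternative, and of those in Jurkat 0. The cathepsin genes CTSB and CTSV and the cystatin gene CSTA were the largest changes in Molt-4, with CTSB averaging 217 ± 4.52 FPKM in treated and 41.0 ± 1.59 FPKM in untreated libraries (log2 change 2.38, adjusted p = 1.38e-10). CSTA averaged 11.3 ± 1.66 FPKM in treated and 0.143 ± 0.0577 FPKM in untreated Jurkat (log2 change 3.42), and CTSH, a cathepsin, averaged 9.44 ± 3.41 FPKM treated and 2.18 ± 0.724 FPKM untreated there. CSTA reached an FPKM of 1 only in the treated libraries of both lines. Its calls against untreated libraries follow from the filter and remain in the counts of this list, and no p is given for it. CTSC, the cathepsin that activates granzymes, and SERPINB9, the inhibitor of granzyme B, are given after their values were seen. CTSC averaged 101 ± 1.08 FPKM in treated and 123 ± 5.57 FPKM in untreated Molt-4 (log2 change -0.28, adjusted p = 0.00152), and 75.1 ± 0.76 FPKM in treated and 58.2 ± 5.04 FPKM in untreated Jurkat (log2 change 0.37, adjusted p = 0.000251). SERPINB9 rose in Molt-4, to 9.85 ± 0.622 FPKM in treated, against 3.37 ± 0.197 FPKM in untreated libraries (log2 change 1.31, adjusted p = 1.97e-07), and averaged 1.15 ± 0.0889 FPKM treated and 1.01 ± 0.169 FPKM untreated in Jurkat (adjusted p = 0.406).

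The transport and release genes had medians near those of all genes. Of 27 tested, 12 were called higher and 5 lower in Molt-4, with a median log2 change of 0.07, and 8 were higher and 4 lower in Jurkat, with a median of 0.11, beside medians over all genes of 0.08 in Molt-4 and 0.04 in Jurkat. Among all genes tested, 35.4% were higher and 24.6% lower in Molt-4, and 30.9% higher and 25.4% lower in Jurkat. The count of higher calls in Jurkat is thus near the background, and the count of lower calls exceeds it in neither line. SYTL2 reached an FPKM of 1 only in treated libraries, so its calls against untreated ones follow from the filter. Of the calls, 5 in Molt-4 and 3 in Jurkat were lost under an alternative. UNC13D (Munc13-4), the factor that primes granules for fusion, fell in both lines, to 85.0 ± 1.62 FPKM in treated, against 152 ± 2.97 FPKM in untreated Molt-4 (log2 change -0.83, adjusted p = 1.32e-07), and to 19.3 ± 0.843 FPKM in treated, against 66.6 ± 4.65 FPKM in untreated Jurkat (log2 change -1.73, adjusted p = 4.5e-10). STX11, a syntaxin of granule fusion, rose in Molt-4, to 4.52 ± 0.217 FPKM in treated, against 1.07 ± 0.478 FPKM in untreated libraries (log2 change 1.44, adjusted p = 3.06e-06). LAMP2, a lysosome membrane protein, rose in both lines, with log2 changes of 0.76 in Molt-4 and 0.90 in Jurkat. In untreated cells the transport genes VAMP8 (a granule fusion protein), DOCK8 and RAB27A (a GTPase that docks granules) had the largest differences of this list. All were higher in Molt-4, by a log2 difference of 4.68 for VAMP8, 2.69 for DOCK8 and 1.96 for RAB27A. VAMP8 and DOCK8 reached an FPKM of 1 only in Molt-4 libraries and entered the fit through that line. Of 7 neighbouring or related serine protease genes 4 were tested, and AZU1 entered the fit only through treated Molt-4. Without it, 3 were called higher in Molt-4, and in Jurkat 2 were higher and 1 lower, with the PRSS57 call lost under an alternative in each line. CFD (complement factor D) rose in both lines, with log2 changes of 1.51 in Molt-4 and 0.86 in Jurkat.

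**Figure D5:**
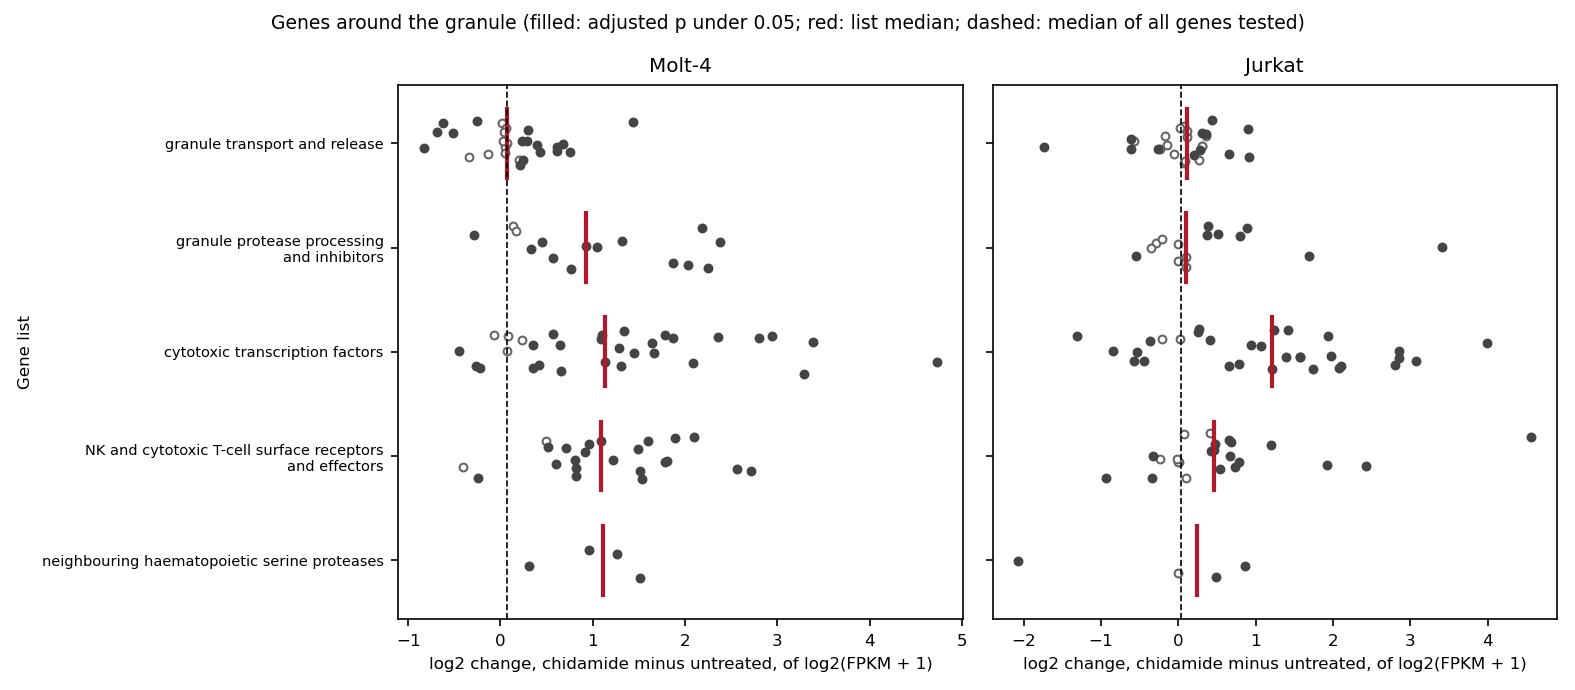
Log2 change of log2(FPKM + 1), chidamide minus untreated, of each tested gene of 5 lists in Molt-4 (left) and Jurkat (right), with filled points for an adjusted p under 0.05, a red bar for the list's median and a dashed line for the median of all genes. The transcription factor medians lie at 1.13 in Molt-4 and 1.22 in Jurkat, and those of transport and release at 0.07 in Molt-4 and 0.11 in Jurkat.

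Markers of other blood cells moved as well. The summed level of 12 NK markers was 23.67 to 26.72 FPKM in treated and 3.42 to 5.45 FPKM in untreated Molt-4, and 25.05 to 30.41 FPKM in treated and 0.41 to 1.11 FPKM in untreated Jurkat. NCAM1 alone gave 25.3 FPKM of the treated Jurkat sum, KIR2DL4 was listed at 0 in all 12 libraries and KLRC1 at 0 in all 6 Molt-4 libraries, and KLRD1 averaged 0.00667 FPKM in treated Molt-4 and 0.167 FPKM in treated Jurkat. Of the 12 markers, 6 were at an FPKM of at least 1 in every treated Molt-4 library and 1 in every treated Jurkat library. The 10 myeloid markers summed to 116 to 120 FPKM in treated and 16.7 to 18.0 FPKM in untreated Molt-4, with LYZ averaging 62.9 FPKM treated and 0.677 FPKM untreated, and to 6.59 to 11.1 FPKM in treated and 2.22 to 4.33 FPKM in untreated Jurkat. FCN1 was listed at 0 in both Molt-4 groups and in treated Jurkat. The 7 erythroid markers summed to 2948 to 3008 FPKM in treated and 1969 to 2064 FPKM in untreated Molt-4, and to 16.1 to 88.6 FPKM in treated and 7.03 to 9.81 FPKM in untreated Jurkat. The 7 B-cell markers in the table, of 8, summed to 22.6 to 28.5 FPKM in treated and 3.97 to 6.1 FPKM in untreated Molt-4, and to 16.2 to 19.3 FPKM in treated and 35.4 to 43.9 FPKM in untreated Jurkat. Their part in the changes of the granule genes was not tested.

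Across the 12 libraries the members did not form a single pattern. On the log2(FPKM + 1) scale, Pearson's r was 0.90 between GZMA and NKG7, 0.87 between GZMA and GZMM, and 0.85 between GZMM and NKG7. GZMH and CST7, both highest in untreated Jurkat, had r = 0.93. PRF1 had r = -0.95 with GZMH, -0.85 with CST7 and 0.02 with GZMA. The nearest genes outside the members, by the same measure over the 12 libraries, were GNG7, CCM2L and ZSWIM4 for GZMA (r = 0.993 for GNG7), CHCHD2, CASZ1 and DNAJB5 for GZMM (0.991 for CHCHD2), and PRKAR2B, TIMP1 and HHEX for PRF1 (0.999 for PRKAR2B). They were RING1, ARL6IP1 and ARF6 for NKG7 (0.975 for RING1), LOC283683, ELOVL4 and TDRD7 for SRGN (0.985 for LOC283683), and CTSG, BICD1 and MDP1 for CST7 (0.985 for CTSG). The libraries fall into 4 groups, so these values describe the group means and carry no p.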

How the data were processed

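RNA of 12 libraries was analysed from the deposited table, in which the authors gave FPKM values per gene symbol, rounded to 2 decimals. The submitters' processing notes name STAR, HTSeq, DESeq2 and the build hg19. Versions, the order of steps and the way FPKM was obtained are not given in the sources used here. FPKM holds no read counts, and whole reads could not be recovered: with a tolerance of 0.15, 32.0% of 90659 low values came out as whole multiples under equal steps, and 32.7% under fitted steps. The depth is therefore unknown and no counting interval is given.

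The 13840 genes that reached 1 FPKM in 3 or more libraries were kept. Their log2(FPKM + 1) values were fitted by group with limma 3.58.1 in R 4.3.3 (intensity trend, 8 residual degrees of freedom). P-values are two-sided, adjusted by Benjamini-Hochberg over all genes of each of 4 comparisons, and called under 0.05. Alternatives were a pseudocount of 0.1, no filter, an FPKM of at least 5, median-of-ratios scaling, quantile normalization, equal totals without 7SL RNA, only the groups compared, the replicate number as a block, and each library left out. On simulated data for the Jurkat comparison (13840 genes), limma called 39 of 40 genes at log2 changes of -2, -1 and 1 each, 22 of 40 at -0.5, 30 of 40 at 0.5, and 4 of 13640 unchanged genes. The changed genes were drawn only from those with a mean log2(FPKM + 1) above 3. Their recovery therefore does not describe genes of lower level, where most of the members lie.

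The symbols of the members and the other gene lists were drawn up with earlier results of these data known. Named were the 10 members, from each list up to 3 called genes per comparison by size of change (2 by level if there were no calls), and the 3 genes most correlated with each member of mean FPKM at least 1. Further genes of the transcription factor list and of the NK and cytotoxic T-cell list were named after their values were seen. Promoters are from RefSeq (GRCh38.p14), whose table had no entry for GZMK, GZMM, SRGN and CST7. Gene overlaps and neighbours come from GRCh38 annotations, not the build of the files. Motif letters, their complement included, were searched in python 3.11.15.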

Additional observations from a re-analysis of the deposited data

Results flagged for a closer look

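Responses to chidamide that differed between the lines, by the limma test of the difference itself (Molt-4 minus Jurkat, log2), included 5 members, where 19.8% of all genes tested were called higher and 12.1% lower. The values were 2.48 for CST7, 1.04 for GZMM, 0.64 for GZMH, 0.55 for SRGN and -0.62 for PRF1. CST7 was called in opposite directions, with a rise in Molt-4 and a fall in Jurkat, and the rise was lost under quantile normalization (limma adjusted p = 0.908, range over alternatives 0.00292 to 0.908). GZMH entered the fit only through untreated Jurkat, so its value is no independent sign of a difference. The PRF1 difference was lost under quantile normalization, and the SRGN difference under that and 7 other alternatives.

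Among the named genes of the lists, the difference was 3.33 for CTSG, 2.75 for IRF8, 2.25 for SLAMF7, 2.03 for CTSL and 1.14 for STX11. CTSG and IRF8, a transcription factor of myeloid and B cells, were higher with chidamide in Molt-4 and lower in Jurkat. IRF8 averaged 2.66 ± 0.961 FPKM in treated and 0.33 ± 0.212 FPKM in untreated Molt-4, and 1.40 ± 0.44 FPKM in treated and 4.87 ± 0.501 FPKM in untreated Jurkat. SLAMF7 entered the fit only through treated Molt-4. CTSL was listed at 0 in Jurkat, and averaged 73.3 ± 1.17 FPKM in treated and 17.2 ± 0.346 FPKM in untreated Molt-4 (mean ± SD). It thus entered the fit only through Molt-4.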

How the results depend on the processing

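Members called higher numbered 5 to 7 in Molt-4 and 4 to 6 in Jurkat over the alternatives, the fewest under quantile normalization, and 6 in Molt-4 and 5 in Jurkat with each library left out. Of all 13840 genes tested, 3540 were called higher in Molt-4 and 3589 in Jurkat under quantile normalization. Without a filter these were 6132 in Molt-4 and 5050 in Jurkat, of 20104 genes. The count called lower in Jurkat was 1 with a filter of FPKM at least 5, where GZMH is not tested, and 1 to 2 with each library left out (1 without any untreated Jurkat library). For the difference of responses, 1 member was called lower, against 2 without a filter and 0 under quantile normalization, where PRF1 had an adjusted p of 0.0714. The count called higher there was 2 to 4 with each library left out, and 2 without replicate 2 of untreated Jurkat. Between untreated lines, 3 to 5 members were called lower with each library left out. Over all genes, quantile normalization shifted the median log2 change by -0.173 in Molt-4 and by -0.104 for the difference. The share of calls that were higher was then 41.3% in Molt-4 (59.0% without it) and 45.9% for the difference (62.2%), and 50.8% for the difference with totals equalized without 7SL RNA. SERPINB9 in Jurkat turned to -0.43 under quantile normalization. Among the list genes named by the rule, lost calls were those of SYTL2 and PRSS57 in Jurkat and AZU1 for the difference under quantile normalization, and TOX2 for the difference with a pseudocount of 0.1. The causes were not tested. With the replicate number as a block, 6 members were called higher and 0 lower in Molt-4, 5 higher and 2 lower in Jurkat, 4 higher and 1 lower for the difference, and 1 higher and 4 lower between untreated lines, with no call changed. Of all 13840 genes tested, 4844 were then called higher and 3353 lower in Molt-4, and 4207 higher and 3473 lower in Jurkat. For the difference 2630 were higher and 1554 lower, and between untreated lines 3814 higher and 5127 lower. The deviations of same-numbered libraries from their group means had r between -0.0858 and 0.0408, so no pairing by number was seen. Such values cannot show whether same-numbered libraries shared a culture or day, which is not given. Depth is unknown, so levels under an FPKM of 1 carry no counting error here. These are all GNLY values and most values of GZMB, GZMK and GZMH. In untreated Molt-4 they also include all GZMM and CST7 values and most GZMA values. The ratios of means of GZMM, GZMA and CST7 in Molt-4 therefore rest on low untreated values.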
